A study of Mus musculus with 33 samples.

Results

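The genes described here are 8 regulators of primitive endoderm and of its visceral endoderm derivative: Gata6, Gata4, Sox17, Sox7, Pdgfra, Foxa1, Foxa2 and Hnf4a. They were taken by symbol from the deposited expression table, which listed all 8 of the 8 among its 16336 genes. Polyadenylated RNA had been sequenced from E14Tg2a mouse embryonic stem (ES) cells of the 129/Ola strain, unmodified at Nanog, and from 2 derivatives, ΔK9.1 and ΔK9.2, in which a Cas9 deletion removed the H3K9me3-marked region upstream of Nanog. Each derivative is 1 clone. Replicates are repeats of the same lines, so the spread and p-values below are between repeats and not between independent deletion clones. Day 0 is the undifferentiated culture on gelatine in medium with foetal calf serum (FCS) and LIF, and days 4, 6 and 8 are embryoid bodies (EBs) of the same lines in medium with FCS and no LIF, replated after day 4. The 33 libraries are 3 per line and day, except on day 6, when each line has replicates 2 and 3 only. Values are TPM, a level scaled to transcript length and to the total of each library, and EBs are mixtures of cell types, so fewer expressing cells and less RNA per cell cannot be told apart.

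By the GENCODE M21 annotation of mm10, the 8 are protein-coding genes. Gata6 lies at chr18:11052064-11085635 (+), Gata4 at chr14:63198922-63271692 (-), Sox17 at chr1:4490931-4497354 (-), Sox7 at chr14:63943673-63950732 (+), Pdgfra at chr5:75152292-75198215 (+), Foxa1 at chr12:57540628-57546916 (-), Foxa2 at chr2:148042877-148046969 (-) and Hnf4a at chr2:163506808-163572910 (+). None shares a chromosome with Nanog, which is at chr6:122707489-122714633 (+).

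Primitive endoderm is the extra-embryonic layer that separates from the epiblast in the blastocyst, with Nanog marking the epiblast side and Gata6 the endoderm side, downstream of FGF and ERK signalling. Gata6 is the earliest known factor of the lineage, Pdgfra a receptor it activates early, and Sox17, Gata4 and Sox7 are later factors that accompany sorting and maturation. Foxa1, Foxa2 and Hnf4a are factors of mature visceral endoderm and later of liver, and Hnf4a drives genes of secreted transport proteins. None of the 8 is restricted to this lineage: Gata4 and Gata6 are also used in heart, Sox17 and Sox7 in endothelium, Pdgfra in mesenchyme, and Foxa2 in node and definitive endoderm.

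Promoter windows of 300 bases (250 before and 50 after a transcription start) from RefSeq, build GRCm38.p6, were held for 4 of the genes, 7 windows in all. They were searched on both strands for the letters of GATA sites (AGATAA or TGATAA), FOXA sites (TGTTTAC or TATTTAC), HNF4 sites (CAAAGTC or CAAAGGT) and SOX sites (ACAATGG or ACAATAG), since 7 of the 8 genes encode factors of these families and all 8 were higher in wild-type EBs on day 8 than in ES cells. The 4 windows with a match are shown 5′ to 3′ up to 20 bases past the first exonic base, with the match in capitals: Pdgfra at chr5:75152001-75152270 (+), Foxa1 at chr12:57546102-57546361 (-), Foxa2 at chr2:148045445-148045714 (-) and Hnf4a at chr2:163506607-163506827 (+).
Pdgfra: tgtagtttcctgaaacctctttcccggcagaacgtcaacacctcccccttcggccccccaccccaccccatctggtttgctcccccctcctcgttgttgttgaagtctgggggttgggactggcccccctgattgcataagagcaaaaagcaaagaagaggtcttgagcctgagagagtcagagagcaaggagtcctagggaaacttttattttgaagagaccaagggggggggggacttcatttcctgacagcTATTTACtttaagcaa
Foxa1: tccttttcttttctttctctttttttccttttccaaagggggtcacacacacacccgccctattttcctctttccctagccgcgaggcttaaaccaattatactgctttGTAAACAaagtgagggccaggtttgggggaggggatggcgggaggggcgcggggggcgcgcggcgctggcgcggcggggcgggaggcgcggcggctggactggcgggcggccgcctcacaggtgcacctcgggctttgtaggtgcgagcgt
Foxa2: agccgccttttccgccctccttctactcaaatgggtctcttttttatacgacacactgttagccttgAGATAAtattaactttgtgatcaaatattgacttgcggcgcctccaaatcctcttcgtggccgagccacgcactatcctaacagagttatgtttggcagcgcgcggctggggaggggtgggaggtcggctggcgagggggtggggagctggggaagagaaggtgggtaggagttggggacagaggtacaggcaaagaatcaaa
Hnf4a: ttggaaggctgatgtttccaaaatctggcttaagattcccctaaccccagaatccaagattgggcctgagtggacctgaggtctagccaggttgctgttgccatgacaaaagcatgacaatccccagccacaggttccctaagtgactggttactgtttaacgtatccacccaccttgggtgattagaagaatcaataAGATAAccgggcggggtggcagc
The Pdgfra match is a FOXA site beginning 5 bases after the RefSeq start, the Foxa1 match a FOXA site on the opposite strand 141 bases before the start. Foxa2 and Hnf4a each held a GATA site, 183 and 52 bases before the RefSeq start of the window, and the one of Hnf4a runs across the GENCODE start of the gene. The Foxa2 stretch belongs to 1 of 3 listed starts, and the Foxa1 and Foxa2 stretches lie inside the GENCODE spans of their genes. GATA letters occurred in 18.6% and FOXA letters in 6.55% of all 32851 windows of this length. A match is a description of the letters, and no window of the 4 genes held the HNF4 or SOX letters, which occurred in 8.33% and 5.95% of all windows.

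Nanog stood between 326 and 368 TPM in E14Tg2a and between 412 and 486 TPM in the clones on day 0. On day 8 it was 21.97 to 34.6 TPM in E14Tg2a and 49.3 to 177 TPM in the clones. The deletion lies outside the transcript, so these levels do not check it. The sum of the listed TPM is nearly fixed by the unit and does not compare libraries. Scaling factors by the median ratio ran from 0.836 (ΔK9.1 day 4 replicate 3) to 1.128 (ΔK9.1 day 8 replicate 2). Replicate 1 stood apart for the genes described here. On day 0 all 8 genes were highest in replicate 1 in E14Tg2a and in ΔK9.2, with medians of 6.03 and 6.82 times the next replicate. In ΔK9.1 this held for 6 of 8, with a median of 1.47 times. Sox17, for example, was listed at 14.9, 1.11 and 1.07 TPM in the 3 undifferentiated E14Tg2a replicates. On day 4 the counts were again 8, 8 and 6 genes, with medians of 1.90 times in E14Tg2a, 6.53 times in ΔK9.2 and 1.60 times in ΔK9.1. The day 4 replicate 2 of E14Tg2a was also the lowest of its group for 7 of the 8 genes.

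**Figure D1:**
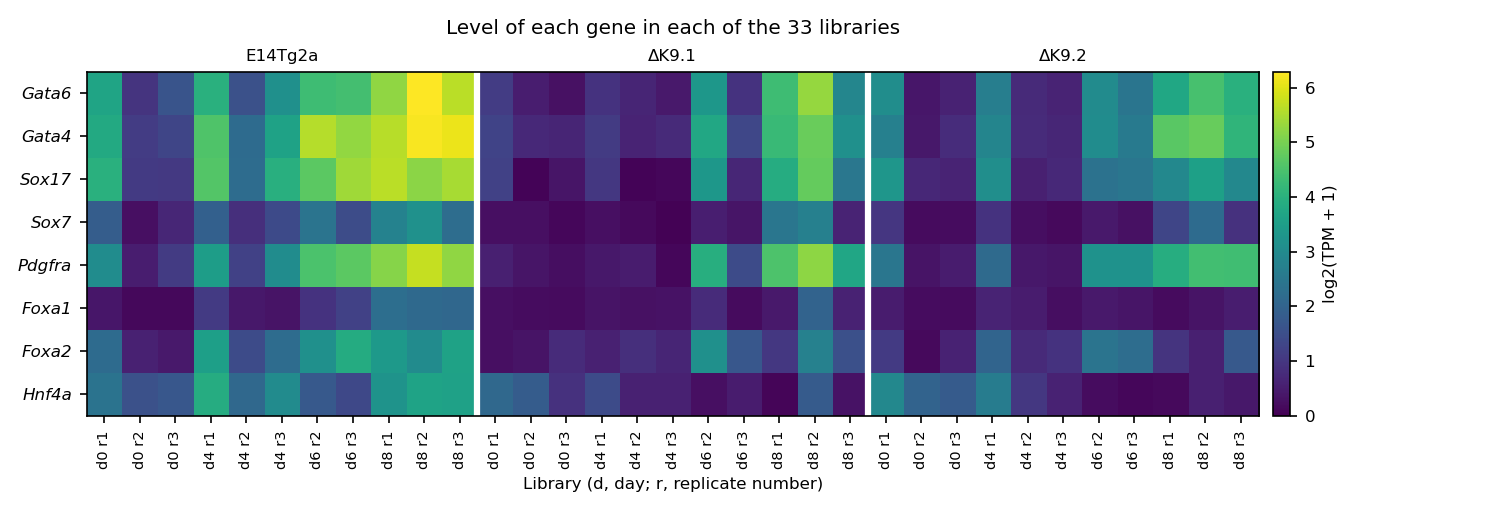
Level of each of the 8 genes (rows) in each of the 33 libraries (columns, by line, day d and replicate number r), as log2(TPM + 1) in colour. The replicate 1 columns are brighter on days 0 and 4 in E14Tg2a and ΔK9.2, and the summed level of the 8 genes on day 8 ran from 195 to 269 TPM in E14Tg2a and from 34.1 to 145 TPM in the clones.

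The wild-type course was examined first. All 8 genes were called higher in E14Tg2a EBs on day 8 than in E14Tg2a ES cells, at an adjusted p under 0.05 and a log2 fold change above 1 (limma on log2(TPM + 1)), where 15.9% of all genes were. Gata4 rose from a mean of 5.23 to 62.9 TPM (log2 fold change 3.89 ± 0.71, SE, adjusted p = 4.5e-05), and Hnf4a from 2.82 to 10.3 TPM (1.60 ± 0.48, adjusted p = 0.0058). On day 6, 5 of 8 were already called higher than on day 0, against 8.95% of all genes: Gata6, Gata4, Sox17, Pdgfra and Foxa2. No gene of the 8 was called by limma on day 4, when 3.67% of all genes were higher, and 2 of the 8 had an unadjusted p under 0.05. Sox7, Foxa1 and Hnf4a were first called on day 8. On day 6 Foxa1 missed only the fold threshold (log2 0.86, adjusted p = 0.023), and with a pseudocount of 0.1 it was called (2.25, adjusted p = 0.0073) while Gata6 was not (2.72, adjusted p = 0.060). With replicate number as a block, Foxa2 was called on day 4 (log2 fold change 1.34, adjusted p = 0.047) and Sox7 on day 6 (1.16, adjusted p = 0.032), in a fit that called 3.8% and 9.02% of all genes higher on those days. Without replicate 1 of every line and day the counts on days 4, 6 and 8 were 0, 6 and 8.

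Between days 6 and 8 only Foxa1 and Hnf4a had called steps in E14Tg2a. Pdgfra, the GATA factors, Sox17 and Sox7 had their highest mean on day 8, but none of the 5 was called between these days (log2 0.38 to 1.36, adjusted p = 0.25 to 0.82), except Gata6 with the compared groups alone (adjusted p = 0.023). Foxa2, a pioneer factor, had already reached 10.7 TPM on day 6 and was at 9.37 TPM on day 8, a difference within the spread of the replicates (adjusted p = 0.89, with 2.73% of all genes lower). Foxa1, its paralogue, stayed near 1.12 TPM on day 6 and reached 3.51 ± 0.26 TPM (SD, n = 3) on day 8, and this last step was called (log2 fold change 1.10 ± 0.29, SE, adjusted p = 0.0079, with 6.53% of all genes higher) but not with a pseudocount of 0.1 (adjusted p = 0.074).

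Hnf4a was the 1 gene of the 8 with a called fall between 2 successive days in E14Tg2a. Its values in E14Tg2a were 4.25, 1.94 and 2.27 TPM on day 0, 13.9, 3.35 and 7.21 TPM on day 4, 2.40 and 1.59 TPM on day 6, and 8.40, 11.45 and 11.03 TPM on day 8. The fall from day 4 to day 6 was called (log2 fold change -1.45 ± 0.54, adjusted p = 0.049, with 4.14% of all genes lower), and so was the rise from day 6 to day 8 (1.92 ± 0.54, adjusted p = 0.010). With a pseudocount of 0.1 neither step was called (adjusted p = 0.14 and 0.055), and the fall was also lost with the replicate block (adjusted p = 0.057), with the compared groups alone (0.082) and without replicate 1 everywhere (0.086). Replicates 2 and 3 both had lower values on day 6 than on days 4 and 8. Ttr, a plasma carrier made by visceral endoderm and liver, likewise had a lower mean on day 6 (17.1 TPM) than on days 4 and 8 (68.3 and 94.2 TPM), but its day 6 replicates were at 3.86 and 30.4 TPM.

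**Figure D2:**
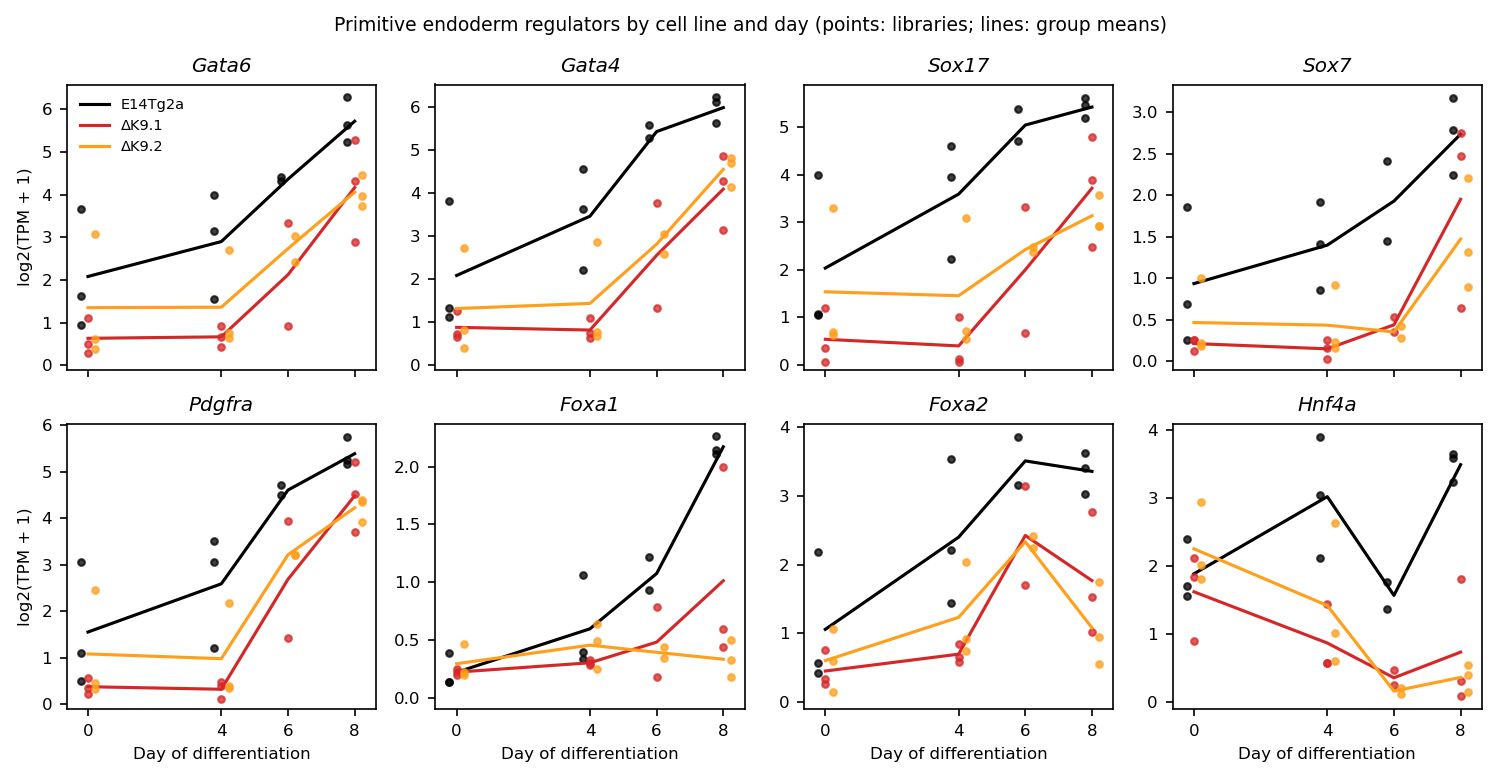
Level of each gene, as log2(TPM + 1), against the day of differentiation in E14Tg2a (black), ΔK9.1 (red) and ΔK9.2 (orange); points are libraries, shifted sideways by line, and lines join the group means. The E14Tg2a mean lies above both clone means for every gene on days 4, 6 and 8, Foxa2 peaks on day 6 in all 3 lines, and Hnf4a is lower on day 6 than on days 4 and 8 in E14Tg2a while at most 0.39 TPM on day 6 in the clones.

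The first calls in the clones came on day 6. On day 4 none of the 8 was called higher than on day 0 in either clone by limma, and none had an unadjusted p under 0.05, where 1.37% of all genes in ΔK9.1 and 2.53% in ΔK9.2 were called higher. Pdgfra and Foxa2 were the 2 genes called higher on day 6 in each clone, beside 4.95% and 7% of all genes. The replicate block added Gata4 in both (adjusted p = 0.021 and 0.028, beside 5.06% and 7.04% of all genes). Without replicate 1 of every line and day, Gata4 was added in ΔK9.1 and both Gata4 and Gata6 in ΔK9.2, to counts of 3 and 4, and leaving out only ΔK9.2 day 0 replicate 1 also gave 4 in ΔK9.2. Otherwise Gata6 and Gata4 followed on day 8 in both clones, and Sox17 and Sox7 on day 8 in ΔK9.1. Day 8 thus had 6 genes called higher than day 0 in ΔK9.1 (10.9% of all genes were) and 3 in ΔK9.2 (11%). Foxa2 was no longer called in ΔK9.2. With replicate number as a block the ΔK9.2 count was 5 (11% of all genes), since Sox17 and Sox7 were added, and it was also 5 without replicate 1. Hnf4a was called higher on no day in either clone, nor was Foxa1 in ΔK9.2. In ΔK9.1 Foxa1 missed the fold threshold on day 8 (log2 0.79, adjusted p = 0.015), and it was called with a pseudocount of 0.1 (1.85, adjusted p = 0.010) and without replicate 1 everywhere (1.09, adjusted p = 0.010). By a mean of 5 TPM instead, Gata4, Pdgfra and Foxa2 came first in ΔK9.1 and Gata6, Gata4 and Pdgfra in ΔK9.2, all on day 6, and Foxa2 did not reach that level in ΔK9.2. The day 6 calls rest on few libraries: they were both lost in ΔK9.1 without its day 6 replicate 2 and in ΔK9.2 without any 1 of day 0 replicate 2, day 6 replicate 2 or day 6 replicate 3.

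Foxa2, highest on average on day 6 in all 3 lines, was listed at 7.86 and 2.25 TPM on day 6 and 1.02, 5.78 and 1.88 TPM on day 8 in ΔK9.1, and at 4.36 and 3.73 TPM on day 6 and 0.92, 0.47 and 2.37 TPM on day 8 in ΔK9.2. This difference between days 6 and 8 was not called in either clone (log2 -0.66 and -1.25, adjusted p = 0.48 and 0.15, with 1.7% and 1.53% of all genes lower). Hnf4a, which rose in E14Tg2a, was lower at the end than at the start. In ΔK9.2 it was at 6.66, 3.02 and 2.51 TPM on day 0 and 0.15 and 0.087 TPM on day 6, a called fall (log2 fold change -2.09, adjusted p = 0.0029, with 10.5% of all genes lower). On day 8 it was at 0.11, 0.46 and 0.32 TPM, again called (log2 fold change -1.89 ± 0.48, adjusted p = 0.0018, with 11.3% of all genes lower). In ΔK9.1 it went from 3.34, 2.58 and 0.87 TPM to 0.064, 2.49 and 0.24 TPM, which was not called (-0.89, adjusted p = 0.13, with 10% of all genes lower) except with a pseudocount of 0.1 (-1.98, adjusted p = 0.039).

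The clones were then compared with E14Tg2a on each day, taking the mean of both clones. Both comparisons of the clones use the same E14Tg2a libraries. On day 0 none of the 8 genes was called lower, and 0.165% of all genes were. Unadjusted limma p-values of the 8 ran from 0.11 to 0.90 on that day, so none was under 0.05 before adjustment either. Foxa1 and Hnf4a had means in the clones close to wild type (0.20 against 0.17 TPM and 3.16 against 2.82 TPM), and the other 6 were at 26.0% to 34.1% of the E14Tg2a mean, where replicate 1 set most of that mean. The clone libraries overlapped those of E14Tg2a for all 8 genes, whereas 2.75% of all genes had every clone library below every E14Tg2a library. Against the E14Tg2a library of the same replicate number, Gata6, Gata4, Sox17, Sox7 and Pdgfra were lower in 6 of 6 clone libraries each, and over the 8 genes 37 of 48 such pairs were lower, against 42.1% of pairs over all genes. Such pairs share E14Tg2a libraries and hold genes that vary together, so they are not independent.

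Differences were called from day 4. Gata4, Sox17 and Hnf4a were lower in the clones on day 4, 3 of 8 genes where 0.71% of all genes were lower. By clone, 3 of the 8 were called lower in ΔK9.1 (0.924% of all genes) and none in ΔK9.2 (0.0979% of all genes). Sox17 differed most, with 23.3, 3.66 and 14.6 TPM in E14Tg2a, 1.02, 0.043 and 0.088 TPM in ΔK9.1 and 7.56, 0.47 and 0.65 TPM in ΔK9.2 (log2 fold change -2.67 ± 0.72, SE, adjusted p = 0.040). The values for Gata4 were -2.33 ± 0.62 (adjusted p = 0.038) and for Hnf4a -1.87 ± 0.41 (adjusted p = 0.013). Each of the 8 genes overlapped between the clones and E14Tg2a on this day, where 5.95% of all genes were separate. In 47 of 48 pairs of a gene and a clone library, the clone was below the E14Tg2a library of the same replicate number, against 57.7% of pairs over all genes. The pairs are not independent, since both clones share each E14Tg2a library and several of the genes vary together over the libraries. A block for replicate number within the day raised the count to 7 of 8, all but Foxa1, with 0.979% of all genes lower. Without replicate 1 of every line and day the count was 3. The count was 0 without either E14Tg2a day 4 replicate 1 or replicate 3, 1 without ΔK9.1 or ΔK9.2 day 4 replicate 2 or 3, and 5 without E14Tg2a day 4 replicate 2 or ΔK9.2 day 4 replicate 1.

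On day 6 every clone library was below both E14Tg2a libraries for all 8 genes, where 19.6% of all genes showed this separation. For Foxa2 this was a near tie, with 7.855 TPM in the highest clone library and 7.902 TPM in the lowest of E14Tg2a. Gata4 was called, at 46.6 and 37.5 TPM in E14Tg2a, 12.6 and 1.53 TPM in ΔK9.1 and 7.27 and 4.95 TPM in ΔK9.2 (log2 fold change -2.74 ± 0.75, adjusted p = 0.038), 1 of 8 genes where 1.37% of all genes were lower. Sox17, at 25.2 and 40.9 TPM against 0.59 to 9.06 TPM, missed the threshold (-2.83 ± 0.88, adjusted p = 0.070). The fit with a replicate block called 3 genes (Gata4, Sox17 and Sox7, adjusted p = 0.0093, 0.018 and 0.023) and 1.78% of all genes. The block within the day called 5, adding Gata6 and Hnf4a, and 2.21% of all genes. With a pseudocount of 0.1, or with the compared groups alone, none of the 8 was called. Nor was any called in ΔK9.1 or ΔK9.2 on its own, where 1.26% and 0.716% of all genes were lower. The Gata4 call was lost (count 0) without either E14Tg2a day 6 library, either ΔK9.2 day 6 library or ΔK9.1 day 6 replicate 3, while 3 genes were called without ΔK9.1 day 6 replicate 2 or E14Tg2a day 0 replicate 1 and 2 without ΔK9.1 day 8 replicate 3. ΔK9.1 replicate 3 was the lowest library of the day for Gata6, Gata4, Sox17, Pdgfra, Foxa1 and Foxa2.

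On day 8 the FOXA factors and Hnf4a were called lower in the clones, together with Sox17, 4 of 8 genes where 3.42% of all genes were. The median log2 fold change of the 8 was -1.63, and that of all genes was -0.0035. Hnf4a differed most: it was at 8.40 to 11.45 TPM in E14Tg2a, as given above, and at a median of 0.28 TPM in the clones, with 2.49 TPM in ΔK9.1 replicate 2 as the highest clone value (log2 fold change -2.94 ± 0.41, adjusted p = 3.1e-05). The mean of the clones was 5.96% of the wild-type mean. Foxa1 was at 3.803, 3.42 and 3.31 TPM in E14Tg2a, 0.35, 3.00 and 0.51 TPM in ΔK9.1 and 0.13, 0.25 and 0.41 TPM in ΔK9.2 (-1.5 ± 0.23, adjusted p = 7.2e-05). Foxa2 was at 9.63, 7.15 and 11.3 TPM in E14Tg2a, above every clone value given above (-1.93 ± 0.44, adjusted p = 0.0032). These 3 genes kept their calls under all alternatives run for this comparison, 41 for Foxa1 and 42 for the others, for the mean of both clones. Most of these alternatives left out 1 library of another day, which does not change the day 8 means. The 3 genes were also called in each clone on its own, where 2.41% (ΔK9.1) and 4.24% (ΔK9.2) of all genes were lower, though the calls in ΔK9.1 were less stable. There Foxa2 (adjusted p = 0.045) was lost with a pseudocount of 0.1 (adjusted p = 0.11), Foxa2 and Foxa1 without replicate 1 everywhere (0.12 and 0.092), and Foxa2, Foxa1 and Hnf4a with the compared groups alone (0.17, 0.23 and 0.058).

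Sox17, which is needed for endoderm to mature, was at 48.3, 35.7 and 43.1 TPM in E14Tg2a, 13.8, 26.7 and 4.59 TPM in ΔK9.1 and 6.58, 10.9 and 6.58 TPM in ΔK9.2. Its libraries did not overlap, but its adjusted p of 0.04999 (log2 fold change -1.999 ± 0.72) was at the threshold. Of the same kind of alternatives as above, 26 of 42 put it past 0.05, up to 0.15. Gata4 did not overlap either, with 47.8, 73.6 and 67.4 TPM in E14Tg2a, 18.3, 27.7 and 7.86 TPM in ΔK9.1 and 24.8, 27.2 and 16.4 TPM in ΔK9.2 (-1.66 ± 0.62, adjusted p = 0.058). Separation of this kind was seen in 5 of the 8 genes and in 7.99% of all genes.

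The other 3 genes overlapped. Gata6 was at 36.8, 76.9 and 49.0 TPM in E14Tg2a, 19.0, 38.1 and 6.44 TPM in ΔK9.1 and 12.4, 21.0 and 14.8 TPM in ΔK9.2 (log2 fold change -1.61 ± 0.66, adjusted p = 0.087). Only the ΔK9.1 replicate 2 value reached the wild-type range. Pdgfra, at 34.6, 52.4 and 37.1 TPM against 21.9, 36.0 and 12.1 TPM in ΔK9.1 and 14.2, 19.95 and 19.4 TPM in ΔK9.2, was also not called (-1.03 ± 0.57, adjusted p = 0.22), the clone mean being 49.7% of wild type. Sox7 was low in all lines, at 5.91, 8.04 and 3.72 TPM in E14Tg2a, 4.53, 5.71 and 0.56 TPM in ΔK9.1 and 1.48, 3.62 and 0.86 TPM in ΔK9.2 (-1.02 ± 0.39, adjusted p = 0.063).

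**Figure D3:**
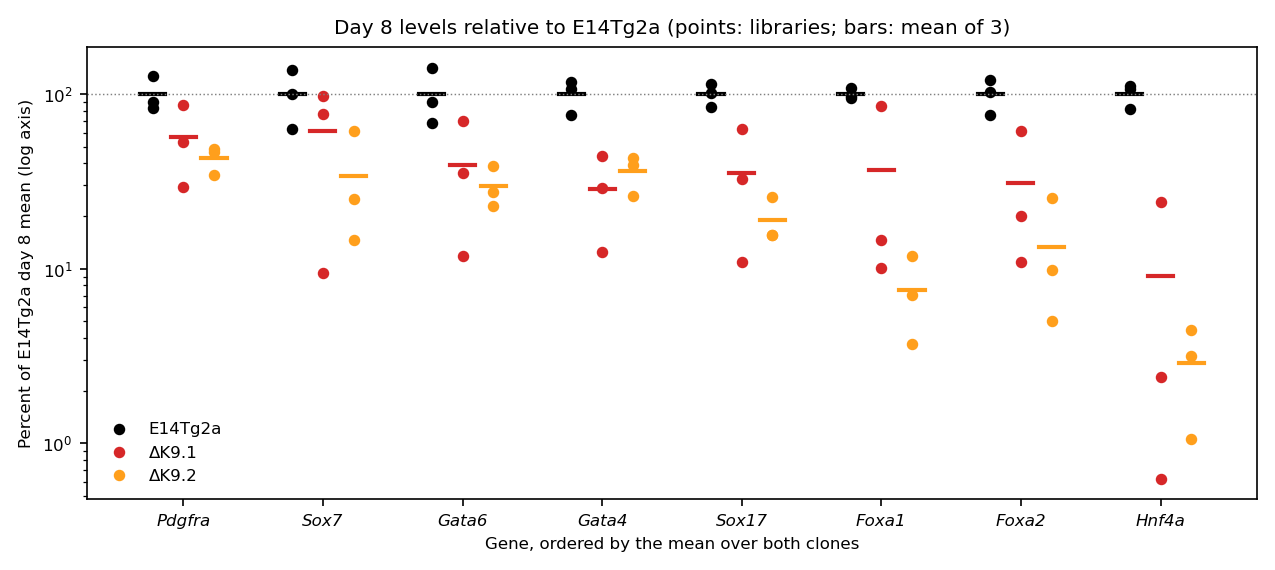
Level of each gene on day 8 in each library as a percent of the E14Tg2a mean of that day (log axis); points are libraries of E14Tg2a (black), ΔK9.1 (red) and ΔK9.2 (orange), bars the mean of 3, and genes are ordered by the mean over both clones. The clone mean runs from 49.7% of wild type for Pdgfra to 5.96% for Hnf4a, and 1 ΔK9.1 library, replicate 2, is the highest clone library for all 8 genes.

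Because the lines had been differentiated in parallel, the replicate numbers were also used as a block. Then 7 of the 8 genes were called lower on day 8, all but Pdgfra (Gata4 adjusted p = 0.019, Gata6 0.044, Sox7 0.025, Sox17 0.014), with 3.53% of all genes lower, and the block within the day also gave 7, with 3.56%. In 48 of 48 pairs the clone was below its same-numbered E14Tg2a library, against 50.8% of pairs over all genes. These pairs are not independent. Both clones share each E14Tg2a library, and the 8 genes correlate over the libraries (r from 0.18 to 0.98). The count was also 7 without ΔK9.1 day 8 replicate 2, and it was 5 without replicate 1 of every line and day.

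The 2 clones were not told apart. None of the 8 genes was called by limma between ΔK9.1 and ΔK9.2 on any day, where 0.52%, 0%, 0.00612% and 0% of all genes were on days 0, 4, 6 and 8. At an unadjusted p under 0.05 there was 1, Foxa1 on day 8, and the largest day 8 differences were those of Foxa1 and Foxa2 (log2 0.68 ± 0.26 and 0.69 ± 0.51, ΔK9.1 minus ΔK9.2, adjusted p = 0.77 and 0.91). The intervals are wide, so this does not show that the clones were alike.

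The change from day 0 to day 8 was compared between lines, since a lower level on day 8 can start from a lower level on day 0. The interaction was called below 0 for Foxa1 and Hnf4a (log2 -1.54 ± 0.32 and -2.99 ± 0.59, adjusted p = 0.0079 and 0.0053), 2 of 8 genes where 2.55% of all genes were lower. Foxa1 rose less in the clones than in E14Tg2a. Hnf4a rose in E14Tg2a (log2 1.60) and was lower on day 8 than on day 0 in ΔK9.1 (-0.89, not called) and ΔK9.2 (-1.89, called). Foxa1 was at adjusted p = 0.05004 without replicate 1 of every line and day, which left 1 gene called. Foxa2 was at -1.40 ± 0.63 (adjusted p = 0.19). For Gata6, Gata4, Sox17, Sox7 and Pdgfra the interaction lay between -0.21 and -0.9999 with SEs of 0.55 to 1.01, and none was called.

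The day 8 libraries of the clones were also set against E14Tg2a at the preceding time point, day 6. Foxa2 was the 1 of 8 genes called lower (-2.08 ± 0.51, adjusted p = 0.014), with 1.14% of all genes lower, a call that was lost without either E14Tg2a day 6 library. Gata6 had means of 18.6 TPM in the day 8 clones and 19.6 TPM in day 6 wild type, and Pdgfra 20.6 and 23.4 TPM. Sox7 had 2.79 and 3.02 TPM. Gata4, at 20.4 against 42.0 TPM, and Sox17, at 11.5 against 33 TPM, had lower means that were not called (adjusted p = 0.37 and 0.25). Nor were Hnf4a, at 0.61 against 1.99 TPM (adjusted p = 0.20), and Foxa1, at 0.78 against 1.12 TPM (adjusted p = 0.38).

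Ratios between genes were taken within each library, as log2 of (TPM + 1), and 5 were tested on day 8 by a two-sided exact permutation test, 3 libraries against 6, whose smallest p is 0.0238. The test treats the 6 libraries of both clones as separate units, although they are repeats of 3 per clone. The Gata6 to Gata4 ratio differed by 0.05 between the clones and E14Tg2a (mean -0.20 ± 0.46 and -0.25 ± 0.28, SD, exact p = 0.86), both genes being at 34.3% and 32.4% of wild type. In E14Tg2a the TPM of Gata6 were 0.67, 0.54 and 0.70 times those of Gata4 on day 4, 0.41 and 0.54 times on day 6 and 0.77, 1.05 and 0.73 times on day 8, which was not tested. Pdgfra to Gata6 was higher in the clones by 0.58 (0.23 ± 0.33 against -0.34 ± 0.23), which reached the smallest exact p of 0.0238 but not the threshold after adjustment over the 5 ratios (adjusted p = 0.12). With labels permuted within replicate numbers the p was 0.074, which is then the smallest possible.

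The remaining 3 ratios also failed the adjustment. Sox7 to Sox17 was higher in the clones by 0.98 (exact p = 0.071, adjusted p = 0.12), or by 0.65 with no pseudocount (exact p = 0.21). Hnf4a to Foxa2 differed by -1.01 on the log2 scale, at 0.13 ± 0.42 in E14Tg2a and -0.87 ± 0.47 in the clones (exact p = 0.071, adjusted p = 0.12), or by -2.50 with no pseudocount (exact p = 0.071). Foxa1 to Foxa2 was higher by 0.43 with a pseudocount of 1 (exact p = 0.12, adjusted p = 0.15), but lower by 0.37 on the log2 scale when no pseudocount was added (exact p = 0.50), so no direction is given for it. Untested and chosen after the values were seen, the TPM of Hnf4a were 0.23, 0.15 and 0.23 times those of Gata6 in E14Tg2a on day 8, 0.0034, 0.065 and 0.038 times in ΔK9.1 and 0.0087, 0.022 and 0.022 times in ΔK9.2.

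**Figure D4:**
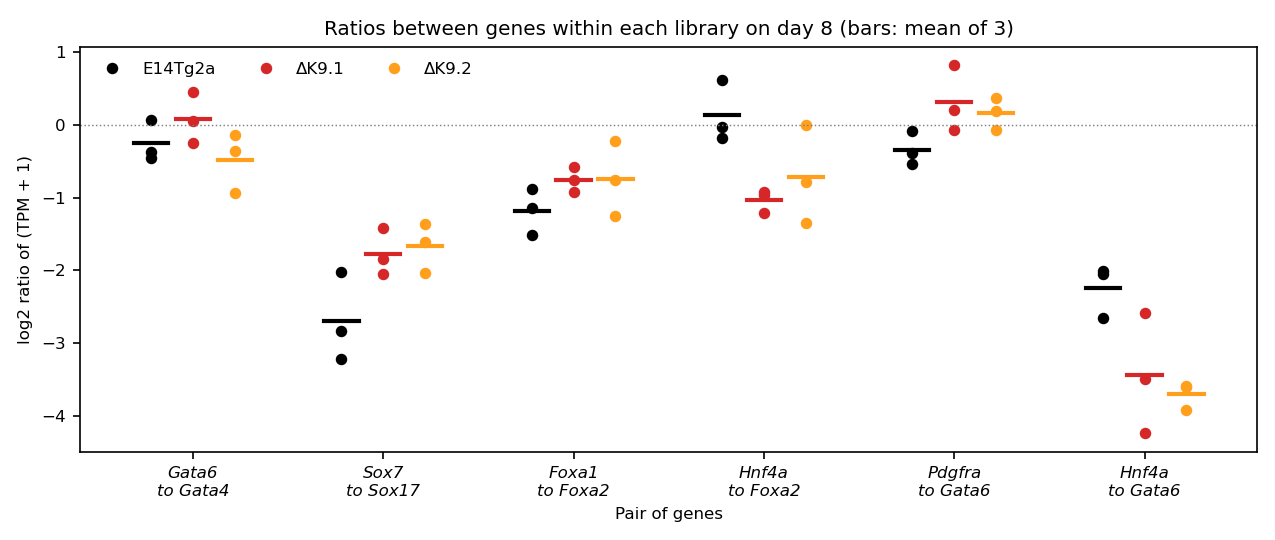
Ratio of 2 genes within each day 8 library, as the log2 ratio of (TPM + 1), for E14Tg2a (black), ΔK9.1 (red) and ΔK9.2 (orange); points are libraries, bars the mean of 3, and the dotted line marks equal levels. Gata6 to Gata4 overlaps between the lines (exact p = 0.86), while for Pdgfra to Gata6 every clone library lies above every E14Tg2a library, the nearest pair at -0.078 and -0.087 (exact p = 0.0238, adjusted p = 0.12).

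Gata4 and Sox7 sit on the same stretch of chromosome 14, between 50 and 80 Mb. An earlier look at these data, not described in the study's paper, had found most genes there lower in both clones. Among genes reaching an average of 5 TPM in some group, the log2 fold change (clones minus E14Tg2a) of the other 200 in the segment had medians of -0.57, -0.62, -0.87 and -0.75 on days 0, 4, 6 and 8, and 93.5% to 96.5% of them were below 0. The 11741 genes elsewhere had medians between -0.073 and 0.062. Gata4 was 0.41, 1.71, 1.87 and 0.91 lower on the log2 scale than the segment median on the same days, and Sox7 0.02, 0.49, 0.66 and 0.28 lower. The part of the segment in these 2 results was not tested. The other 6 genes lie elsewhere.

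**Figure D5:**
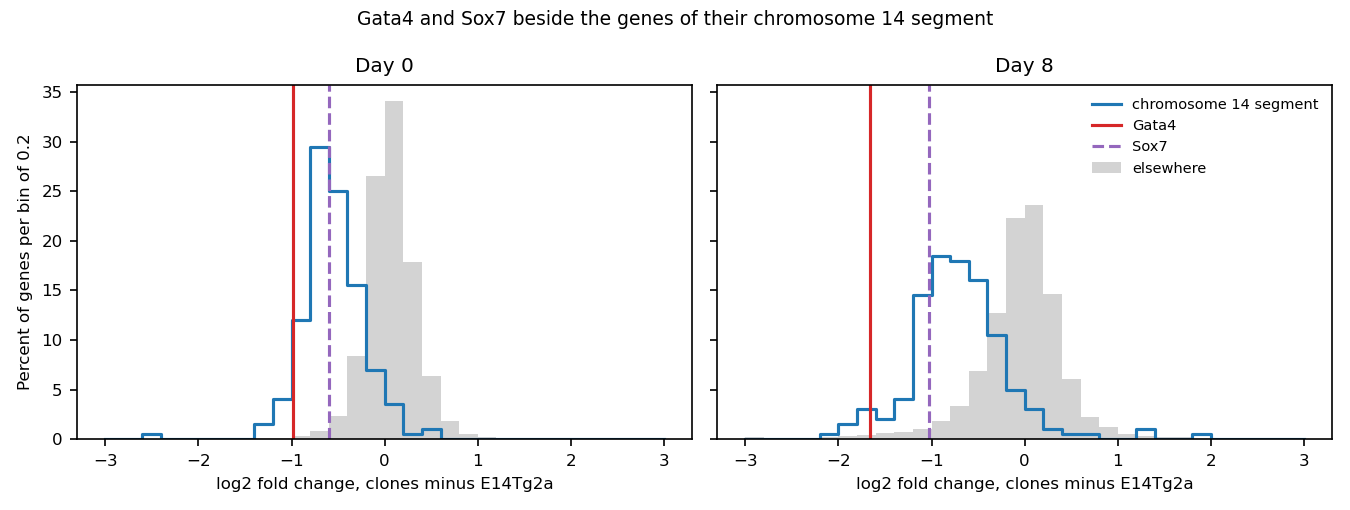
Distribution of the log2 fold change (clones minus E14Tg2a) on day 0 and day 8 for genes of the chromosome 14 segment (blue outline) and genes elsewhere (grey bars), as percent of genes per bin of 0.2, with Gata4 (red) and Sox7 (dashed purple) marked. The segment is shifted to the left on both days (medians -0.57 and -0.75), Sox7 stands near its median on day 0 and 0.28 below it on day 8, and Gata4 is below the median on both days.

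The genes most like each of the 8 over the 33 libraries (Pearson r of log2(TPM + 1), among 12073 genes other than the 8) are a description of shared levels, since all points share lines and days. Dkk1, a secreted WNT inhibitor, was the likest of these for Gata6, Gata4 and Pdgfra (r = 0.96, 0.95 and 0.99). Nedd9 and Serpinh1 followed for both GATA factors, and Phldb2 and P3h2 for Pdgfra. For Sox17 they were Flrt3, Lamb1 and Col4a2 (r = 0.93 to 0.95), the latter 2 encoding chains of the basement membrane. For Sox7 they were 1010001N08Rik (r = 0.94), a transcript annotated over Gata6 on the opposite strand, then Flrt3 and Creb3l2. Rfx6, a factor of gut and pancreatic endoderm, was among the 3 of Foxa1, with Chsy3 and Filip1l, while Foxa2 had Pth1r, Selenos and Flt1 with lower r (0.82 to 0.89). Soat2, Dpp4 and Apom, genes of lipid handling and the brush border, were those of Hnf4a (r = 0.90 to 0.92). Among the 8 themselves r ran from 0.18 for Pdgfra and Hnf4a to 0.98 for Gata6 and Gata4, and Hnf4a was at 0.54 or below with all others.

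Lists around these factors were counted on day 8, when 3.42% of all genes were lower and 0.826% higher in the clones. Among 10 ligands, receptors and adaptors upstream of them, 3 were lower and none higher in the clones, with Fgfr3 at 25.6 ± 13.4 TPM (SD, n = 3) in E14Tg2a and 7.26 ± 1.60 TPM (n = 6, 3 per clone) in the clones (adjusted p = 0.0018) and Pdgfrb at 23.4 and 10 TPM (adjusted p = 0.0075). Of 14 listed paralogues and co-acting factors, 4 were lower and none higher. The blood factor Gata1 was at 9.66 ± 7.70 TPM in E14Tg2a and 2.42 ± 3.89 TPM in the clones (adjusted p = 0.0022). Hnf4g, Onecut1 and Nr0b2 were not listed. Of 19 structural and secreted endoderm genes, 15 were lower and none higher (median log2 fold change -2.08), with Ttr at 94.2 ± 26.2 and 4.66 ± 8.00 TPM and Afp at 66.1 ± 56.1 and 2.30 ± 3.34 TPM (adjusted p = 8.4e-05 and 0.0008).

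Markers of other tissues that use these factors moved in the same libraries. Of 12 cardiac markers 7 were lower, with Tnnt2 at 19.6 ± 14.04 and 2.67 ± 1.62 TPM and Myl7 at 21.4 ± 10.2 and 3.83 ± 1.14 TPM, and their summed level was 676 to 950 TPM in E14Tg2a and 142 to 624 TPM in the clones. Of 10 endothelial markers 8 were lower, with Tek at 16.0 ± 9.34 and 4.09 ± 4.505 TPM and Cdh5 at 17.0 ± 12.2 and 5.85 ± 8.03 TPM, and sums of 87.5 to 218 TPM and 26.5 to 175 TPM. Of 8 mesenchyme markers 5 were lower, with Postn at 164 ± 202 and 4.61 ± 5.53 TPM and Col1a2 at 113 ± 89.1 and 7.83 ± 6.03 TPM, and sums of 413 to 1740 TPM and 54.0 to 265 TPM. No gene of these 3 lists was higher, and none was at 0 in all libraries of a line on day 8. Their part in the levels of Gata4 and Gata6, of Sox17 and Sox7, and of Pdgfra was not tested.

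Lists for the other sources of Foxa2 and Sox17 were counted too. Of 6 definitive endoderm markers 3 were lower and none higher in the clones on day 6 (median log2 fold change -1.56, that of all genes being -0.028), when 1.37% of all genes were lower and 0.251% higher, while on day 8 none was lower and 1 was higher, Eomes, at 8.76 ± 10 and 24.1 ± 17.6 TPM (adjusted p = 0.011). Of 5 node and floor plate markers 1 was lower on day 6, and 1 was higher on day 8, the primitive streak gene T, at 16.8 ± 24.3 and 71.9 ± 74.0 TPM (adjusted p = 0.0076), when none was lower. Their part in the levels of Foxa2 and Sox17 was not tested. Parietal endoderm, the other derivative of primitive endoderm, had 2 of 6 markers lower on day 8, Plat and Thbd, and none higher. Of 9 pluripotency markers 5 were higher, with Nanog at 26.8 ± 6.84 and 102 ± 47.4 TPM and Pou5f1 at 133 ± 71.4 and 393 ± 219 TPM (adjusted p = 1.3e-05 and 0.00041).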

How the data were processed

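Per the study's methods, the authors sequenced stranded poly-A libraries from both ends. They used STAR for alignment to mm10 and RSEM to quantify each gene. The deposited values are TPM, computed by the authors within each library after outliers by PCA had been omitted. Tool versions and the annotation are not given in the sources used here, the methods give 1 approximate read number for all libraries. TPM keep no depth, so the depth of each library cannot be read from the table and precision rests on the replicates. The table also holds the authors' DESeq2 log2 fold changes and FDR between days and lines, which were not used.

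Here log2(TPM + 1) of all 16336 genes in all 33 libraries was fitted once, as 12 groups of line and day, by limma 3.58.1 in R 4.3.3, whose empirical Bayes prior followed mean expression. P-values were adjusted over all genes (Benjamini-Hochberg), and genes were called at an adjusted p under 0.05 and an absolute log2 fold change above 1. A minimum mean of 1 TPM in 1 group removed no gene. On data simulated for the day 8 comparison of 16336 genes, 98 of 100 changes of 1.5 and 99 of 100 changes of 2 (log2) were recovered. They were placed only in genes above a set E14Tg2a day 8 level and below a set spread, with noise independent between libraries. Foxa1 and Sox7 lie below that level, and the share need not hold for genes of wider spread. Gata4 and Gata6, with day 8 differences of -1.66 and -1.61, were not called. Ratios were tested by exact permutation with Python 3.11.15. The lines had been differentiated in parallel in independent assays. Over 33 pairs of same-numbered libraries of 1 day, the residuals correlated with a median r of 0.22 (31 above 0.1). Over 60 pairs of unlike number the median was -0.13, which follows in part from centring on group means and is no separate support. For the parallel design and the same-number correlation, replicate number was used as a block beside the main fit. The genes and lists were chosen with earlier results of these data known. The text names the 8 genes, Nanog, the 3 likest genes of each (Pearson r) and, per list, at most 2 genes called on day 8 with the largest change, and also the members behind a count, without values; 1 gene that this rule names is not reported here. Genes were placed by symbol with GENCODE M21 (16078 of 16336, 98.4%). Alternatives were another pseudocount, filter, scaling, trend, replicate block, the compared groups alone and leaving out each library.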

Additional observations from a re-analysis of the deposited data

Results flagged for a closer look

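Of the 8 genes, 2 differed between lines in their change from day 0 to day 8 by the interaction term of the limma fit. Foxa1 changed by 1.54 less on the log2 scale in the clones than in E14Tg2a (interaction -1.54, adjusted p = 0.0079). Its mean rose from 0.17 to 3.51 TPM in E14Tg2a. In neither clone was a change called at the fold threshold, although ΔK9.1 missed only that (log2 0.79, adjusted p = 0.015) and was called without replicate 1 of every line and day: the means on days 0 and 8 were 0.16 and 1.29 TPM in ΔK9.1, where replicate 2 alone was at 3.00 TPM on day 8, and 0.23 and 0.26 TPM in ΔK9.2. For Hnf4a the interaction was -2.99 (adjusted p = 0.0053), with means going from 2.82 to 10.3 TPM in E14Tg2a, from 2.27 to 0.93 TPM in ΔK9.1 and from 4.06 to 0.30 TPM in ΔK9.2. No test for a single outlying sample was run, since each group holds 2 or 3 libraries.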

How the results depend on the processing

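Leaving out 1 library at a time, the number of the 8 genes lower in the clones was 0 to 5 on day 4, 0 to 3 on day 6 and 3 to 7 on day 8, and 0 on day 0. The number higher than on day 0 was 0 to 3, 3 to 6 and 8 in E14Tg2a on days 4, 6 and 8. It was 0, 0 to 3 and 5 to 7 in ΔK9.1, and 0, 0 to 4 and 3 to 5 in ΔK9.2. E14Tg2a had 3 genes on day 6 without day 0 replicate 2 or 3 or day 6 replicate 3. On day 4 it had 3 without day 0 replicate 1, 2 without its day 4 replicate 2 or ΔK9.2 day 4 replicate 1, and 1 without ΔK9.1 day 6 replicate 2 or 3 or day 8 replicate 2. ΔK9.2 had 4 on day 6 and 5 on day 8 without day 0 replicate 1, and 1 on day 6 without day 0 replicate 3. The interaction count stayed at 2, and day 8 clones against day 6 wild type gave 0 to 1. No gene was called between the clones under any library left out.

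With a pseudocount of 0.1 in place of 1, day 4 had 5 genes lower and day 6 had 0. Fitting only the groups compared gave 0 on day 4, 0 on day 6, and 0 for day 8 clones against day 6 wild type. A minimum of 5 TPM left 1 gene in the interaction, since Foxa1, with a highest group mean of 3.51 TPM, was then not tested. Omitting replicate 1 everywhere was chosen after seeing the data. It also left 1 gene in the interaction, and gave 3 genes lower on day 6, and 4 and 5 genes higher in ΔK9.2 on days 6 and 8. The replicate block gave 3 on day 6, 7 on day 8, 1 gene (Foxa2) higher in E14Tg2a on day 4 and 5 in ΔK9.2 on day 8. The block within the day gave 7, 5 and 7 on days 4, 6 and 8. Neither block moved any other count given for the 8 genes by over 1.5 times. Median ratio scaling gave 1 gene higher in E14Tg2a on day 4. Over all genes, 63, 130, 265 and 693 were called between the clones and E14Tg2a on days 0, 4, 6 and 8. The pseudocount of 0.1 gave 106, 196 and 1155 on days 0, 4 and 8. The compared groups alone gave 22, 140 and 334 on days 4, 6 and 8 and 269 in place of 499 for the interaction. The block within the day gave 441 on day 6, and omitting replicate 1 gave 140 on day 0. With 1 library left out these counts ran from 47 to 132, 38 to 181, 57 to 532 and 372 to 953 on days 0, 4, 6 and 8 and from 168 to 752 for the interaction, and the shares of all genes given beside the 8 move with them.

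The Foxa1 to Foxa2 ratio turned to -0.14 with a pseudocount of 0.1 and to -0.37 with none. Pdgfra to Gata6, at 0.58, was past no threshold when labels were permuted within replicate numbers, by construction of the smaller number of permutations. Over the libraries left out, the day 8 ratios ran from -0.076 to 0.21 for Gata6 to Gata4, 0.71 to 1.31 for Sox7 to Sox17, 0.26 to 0.58 for Foxa1 to Foxa2, -1.18 to -0.77 for Hnf4a to Foxa2 and 0.46 to 0.70 for Pdgfra to Gata6. Uncalled interactions that changed sign were Gata6 (0.14) and Pdgfra (0.43) with a pseudocount of 0.1, and over the libraries left out Gata6 ran from -1.31 to 0.047 and Pdgfra from -0.96 to 0.31. Foxa1 on day 4 ran from -0.35 to 0.015, the latter without E14Tg2a day 4 replicate 1. Other causes of these shifts were not tested. By a first day with a mean of at least 5 TPM, onset in E14Tg2a was day 0 for Gata4 and Sox17, day 4 for 4 genes and day 8 for Sox7, and Foxa1 never reached it. The 2 day 0 means rest on replicate 1, at 13.0 and 14.9 TPM, with at most 1.49 TPM in the other replicates. Replicate 1 was also the highest for the genes with onset on day 4. With a 1 TPM minimum, 259 other segment genes had a day 8 median of -0.67.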
